A study of Mus musculus with 4 samples.

Results

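DEAD-box and DEAH-box proteins, encoded by the Ddx and Dhx genes, are enzymes that use ATP to unwind or remodel RNA. They serve nearly every step in the life of an RNA, among them splicing, export from the nucleus, ribosome assembly, translation and decay, and a few sense viral RNA. The m6A marks that lie on the messages of these genes were examined in mouse macrophages with floxed alleles of the m6A writer Mettl3, without and with a Cre recombinase. Members were all genes in the deposited peak lists whose name is Ddx or Dhx followed by a number and at most 1 letter. Results for 1 gene of that form are not reported here. The rule used names only and no measured value. It gave 40 genes of the 13035 named in either list, with 64 of 16709 peaks in the WT list, 66 of 21031 in the KO list, and 25 of the 6050 peaks of the table comparing the genotypes.

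The cells were bone-marrow-derived macrophages of C57BL/6 mice, grown for 7 days with M-CSF, the growth factor that drives macrophage formation. Both genotypes carried Mettl3fl/fl alleles. The cells called WT had no Cre by their label, and those called KO also carried LysM-cre, a Cre recombinase expressed from the lysozyme 2 gene in myeloid cells. Poly(A) RNA was fragmented and precipitated with an antibody to m6A to give an IP library, and unprecipitated RNA gave an input library. Each genotype had 1 IP and 1 input library, 4 together, and without replicates no test over samples could be made. Read totals are not used here, so the depth of the libraries is unknown. For Mettl3 itself the KO list holds 1 peak and the WT list none, and no input level was listed, so its loss was not checked on its own transcript. Of 8 macrophage markers 5 had a listed input level, from 40.6 to 10533 FPKM in WT and from 58.4 to 6615 FPKM in KO, where FPKM scales reads to the length of the transcript and the size of the library. The upper end in both was Lyz2, the lysozyme 2 gene from which the Cre is expressed. Adgre1 had 247 FPKM in WT with 269 in KO, Cd14 153 with 198, Fcgr1 40.6 with 58.4, and Cd68 1029 with 994. Of 8 neutrophil markers S100a8 had 77.7 FPKM in WT with 46.4 in KO, and S100a9 had 155 with 90.2. Of 4 B cell markers Cd79b was listed, at 1.12 and 0.734 FPKM, and none of 3 T cell or 4 stromal markers was. Levels are listed only for genes with a differential peak, so a gene not listed is not shown to be absent. The stromal genes Col1a1, Col1a2 and Dcn had peaks: 2, 1 and 0 in WT and 1, 1 and 2 in KO. Of the neutrophil markers without a level, Mpo had 1 peak in WT and Ltf 2, and neither had one in KO. Among macrophage markers without a level, Csf1r had 1 peak in WT and 2 in KO, and Itgam and Mertk had none. The part of cells other than macrophages in the results below was not tested.

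METTL3 is the catalytic subunit of the complex that places m6A on messenger RNA as it is transcribed. The marks gather near stop codons, in 3′ UTRs and in long internal exons, within a short consensus whose central A is methylated. In macrophages, reader proteins bind the marked messages and can change their stability and translation.

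Sequence could be read under the helicase peaks only at gene starts, where RefSeq promoter windows (GRCm38.p6, 250 bases before to 50 after each start) reach into a peak. These stretches are shown because they let the m6A consensus be looked for directly under a peak. The word searched was 5 letters long on the strand of the gene: A, G or T, then A or G, then AC, then A, C or T. Matches are in capitals, and no other motif was searched. The windows overlapped peaks of 9 helicase genes, 4 of which held the word in the overlap. The first is at the start of Dhx34, an RNA helicase of the nonsense-mediated decay pathway, at chr7:16222008-16222037 on the minus strand, under a WT peak of 7.82-fold.
Dhx34: atttaGGACCggaagttgaggcgtccgtgc
The KO peak of Dhx34, at 9.89-fold, ended at 16221914 and did not reach this stretch. The second is just before the RefSeq start of Ddx54, a nucleolar helicase and partner of nuclear receptors, at chr5:120613018-120613047 on the plus strand, under a WT peak of 15.3-fold. The KO peak, 17.7-fold, covers it up to 120613038, past the match.
Ddx54: gccctacgggtgAAACCtggattctcgacg
The third is at an internal start of Dhx32, at chr7:133760240-133760269 on the minus strand, and holds 2 matches, which share 1 base. It lay under peaks of 11.4-fold in WT and 9.45-fold in KO, which overlapped Fank1 as well.
Dhx32: AGACAGACAcagctctcccctttataaagt
The fourth is within the first 50 transcribed bases of Ddx5, a cofactor in splicing and microRNA processing, at chr11:106788858-106788873 on the minus strand, under a WT peak of 1.55-fold. That peak had a false discovery rate of 0.157 and overlapped Cep95 as well.
Ddx5: ggagacgtAAACAtct
For contrast, the overlap in Dhx15, a splicing helicase described below, held no match at chr5:52190497-52190514 on the minus strand.
Dhx15: ggccgccattttagctcc
The word stood in the 50 transcribed bases of 27 of 57 windows of helicase genes (47.4%) and in 54.4% of all 32851 windows. The overlaps with peaks ran from 9 to 189 bases, so their matches are not like for like with these shares. A match is therefore frequent by letters alone and describes the sequence only.

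Of the 40 helicase genes, 36 had a peak in WT and 38 in KO, and 34 had one in both. Of all 13035 genes named in either list, 9875 had a peak in WT, 11675 in KO and 8515 in both. Fold enrichment, the authors' ratio of IP over input at a peak, ran from 1.19 to 2660 in WT, with a median of 2.94 against 3.74 over all WT peaks. In KO it ran from 1.14 to 2940, with a median of 3.04 against 3.15 over all KO peaks. At least 4-fold enrichment was reached by 25 of 64 WT helicase peaks (39.1%, exact binomial interval 27.1 to 52.1%), where 48.0% of all WT peaks reached it. In KO 25 of 66 did (37.9%, interval 26.2 to 50.7%), where 40.5% of all KO peaks did. Both intervals hold the share over all peaks. The 2 lists were scaled separately, so folds describe peaks within a list and are not compared between lists. A false discovery rate of 0.05 or more was given to 18 of the WT and 16 of the KO helicase peaks (28.1% and 24.2%). Of all peaks, 29.8% in WT and 35.1% in KO had one.

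Most peaks under helicase names lay in a 3′ UTR, by the annotation in the lists. In WT 41 of 64 peaks (64.1%) were there, 8 (12.5%) in a 5′ UTR and 15 (23.4%) in another exon, against 59.6%, 13.0% and 27.4% of all WT peaks. In KO 44 of 66 (66.7%) were in a 3′ UTR, 11 (16.7%) in a 5′ UTR and 11 (16.7%) in another exon, against 64.1%, 10.3% and 25.6%. The exact interval of each of these shares holds the share over all peaks of its list. For the 3′ UTR in WT it ran from 51.1 to 75.7%. Counting error is all that such intervals cover, and several peaks can share a gene. These counts include 9 WT and 15 KO peaks outside the RefSeq extent of the named gene. The annotation can also differ between overlapping peaks. A Ddx39 peak is given as 3′ UTR in WT, and the KO peak within its bounds as exon 7 of 11. By family, 26 Ddx genes had 44 WT and 39 KO peaks, and 14 Dhx genes had 20 and 27.

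**Figure D1:**
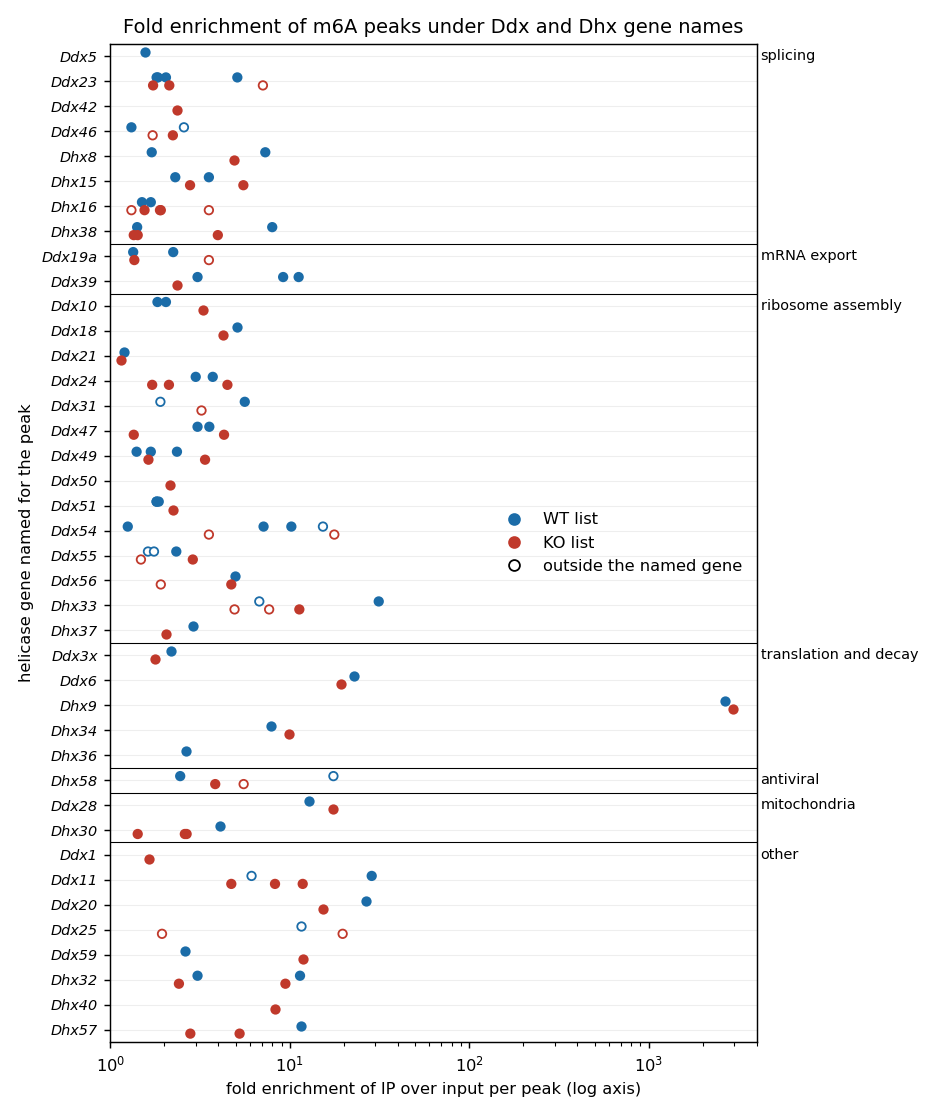
Fold enrichment of IP over input (x, log axis) of every helicase peak, by gene (y) and role, with WT peaks in blue and KO peaks in red; open points lie outside the RefSeq extent of the named gene. All points but those of Dhx9 lie between 1.14-fold and 31.3-fold, and the Dhx9 peak stands at 2660 in WT and 2940 in KO.

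The strongest enrichment in either whole list was on a helicase. Dhx9, or RNA helicase A, binds double-stranded RNA and takes part in transcription and translation. Its peak over the 3′ end of the gene, on chromosome 1 from 153455758 to 153459622 (build mm10), was built of 6 blocks with 1736 exonic bases and had the same bounds in both genotypes. Its fold was 2660 in WT, where the next peak of the whole list stood at 655, and 2940 in KO, where the next stood at 1220. The read counts behind these ratios are not used here. In the authors' deposited table the log2 ratio of KO over WT at this peak was -0.20, the smallest of the lower helicase values.

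After Dhx9, the highest WT folds were 31.3 in Dhx33, 28.6 in Ddx11, 26.5 in Ddx20 and 22.9 in Ddx6. Dhx33 works in ribosomal RNA synthesis, Ddx11 is a DNA helicase of sister chromatid cohesion, Ddx20 (gemin3) belongs to the SMN complex that assembles splicing particles, and Ddx6 represses translation and promotes decapping of messages. In KO the next peaks after Dhx9 were 19.7-fold under the name Ddx25, 19.3-fold in Ddx6, 17.7-fold under Ddx54 and 17.4-fold in Ddx28. The peak named after Ddx25, a testis helicase, lay in the neighbouring genes Pus3 and Hyls1 in RefSeq, and that named after Ddx54 lay before its start. Ddx6 alone was among the 5 highest of both lists beside Dhx9. An order by fold is not an order by support. In WT the false discovery rate was 2.1e-08 for Ddx11 and 1e-152 for Ddx20, and in KO it was 0.00048 for the Ddx54 peak.

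Several helicase names were given to many peaks. By name in WT, 16 genes had 1 peak, 14 had 2, 4 had 3 and 2 had 4. Ddx23 and Ddx54 had 4, and Ddx39, Ddx49, Ddx51 and Ddx55 had 3. In KO, 19 genes had 1 peak, 12 had 2, 6 had 3 and Dhx16 had 5. The 6 with 3 were Ddx11, Ddx23, Ddx24, Dhx30, Dhx33 and Dhx38. Of the genes with 3 or more peaks, Ddx23 was in both sets. Some of these peaks lay outside the named gene, and some genes held more peaks than their name shows, as described for Ddx6 below.

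Peaks of the genotypes largely overlapped. Of the WT helicase peaks, 43 of 64 (67.2%, exact interval 54.3 to 78.4%) had at least 1 exonic base inside a KO peak, where 73.4% of all WT peaks did. Of the KO helicase peaks, 50 of 66 (75.8%, interval 63.6 to 85.5%) had one inside a WT peak, where 61.6% of all KO peaks did. The share was higher among strong peaks: 20 of 25 WT helicase peaks of at least 4-fold were shared and 23 of 39 weaker ones, against 78.7% and 68.5% over all WT peaks.

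Peaks with a p of 0.05 or more are not in the table that compares the genotypes, and how many helicase peaks were tested is unknown. It held 25 helicase peaks in 20 genes. There were 21 lower in KO and 4 higher in the authors' deposited table (84.0% lower, exact interval 63.9 to 95.5%), where 69.6% of all 6050 listed peaks were lower. The median log2 ratio of the 25 was -0.46 against -0.40 over all peaks in the authors' deposited table. There, 15 of 25 lay below that median, against 50.0% of all peaks. The lower helicase peaks had a median of -0.55 in the authors' deposited table, equal to that of all lower peaks and to 0.681 of the WT enrichment. A log2 ratio of at least 1 in size was listed in the authors' deposited table for 2 of 25 helicase peaks, where 16.3% of all peaks reached it. A false discovery rate under 0.05 was listed in the authors' deposited table for 22 of 25, where 79.6% of all peaks had one. The helicase share on the lower side was above that of the table, and its interval holds the table's share.

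Both families were on the same side. In the authors' deposited table the Ddx genes had 11 lower and 2 higher peaks in 10 genes, and the Dhx genes 10 lower and 2 higher in 10 genes. Of all listed peaks 69.6% were lower. Of the 20 genes, 16 had lower peaks only, 3 had a higher peak only (Ddx18, Ddx49 and Dhx15) and Dhx58 had one of each. Lower enrichment seldom came with loss of the called peak. Of the 21 lower peaks, 19 overlapped a peak still called in KO, the exceptions being Ddx31 and exon 6 of Dhx8. Among all lower peaks 92.7% did so.

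**Figure D2:**
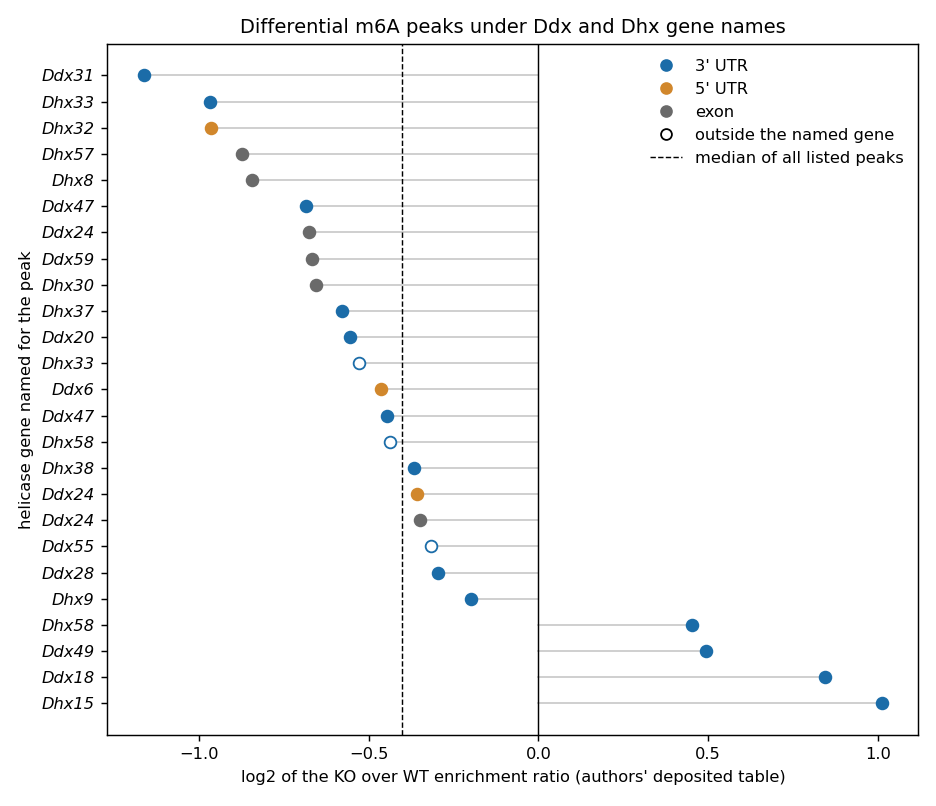
Log2 ratio of KO over WT enrichment (x) in the authors' deposited table for the 25 helicase peaks, 1 line per peak (y, gene name), coloured by annotation; open points lie outside the named gene and the dashed line is the median of all listed peaks. The 21 lower peaks run from -1.16 (Ddx31) to -0.20 (Dhx9), and the 4 higher ones, all in 3′ UTRs, from 0.45 to 1.01.

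Among 11 RefSeq helicases of the spliceosome and mRNA processing, 8 had a peak in either list and 3 had a listed difference. Of these 2 were lower and 1 higher, where 69.6% of all listed peaks were lower. Dhx8, which releases the finished message from the spliceosome, had a WT peak in exon 6 of 23 at 1.7-fold and none there in KO, with a log2 ratio of -0.84 in the authors' deposited table. Its stronger 3′ UTR peak, 7.3-fold in WT and 4.91-fold in KO, had no listed difference. Dhx38, which remodels the spliceosome between its catalytic steps, had a 3′ UTR peak of 7.98-fold in WT and 3.97-fold in KO, with -0.37 in the authors' deposited table. Dhx15, which takes spent spliceosomes apart, went the other way. Its 3′ UTR peak on chromosome 5 from 52150203 to 52150442 stood at 1.01 in the authors' deposited table, the highest value of the group. The called peak there was 2.3-fold in WT, with a false discovery rate of 0.0759, and 5.51-fold in KO. The other members had no listed difference under their own names. Ddx23, a helicase of the U5 particle, had folds of 1.81 to 5.10 in WT. Dhx16, which activates the spliceosome, had 5 KO peaks under its name. Of these, 2 lay in the neighbour Ppp1r18, at 1.31 and 3.54-fold, and those in Dhx16 stood at 1.55, 1.89 and 1.91-fold. Ddx46 had 2 peaks in each list, of which that of 2.57-fold in WT and that of 1.72-fold in KO lay in the neighbour Caml. Ddx5 and Ddx42 had 1 peak each, in WT and in KO.

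Of 4 export helicases, Ddx39 (Ddx39a in RefSeq) and Ddx19a had peaks under their names, and no listed difference. Ddx39, a partner of the export complex that hands messages to the nuclear pore, had WT peaks of 3.06, 9.18 and 11.2-fold and 1 KO peak of 2.36-fold. The WT peaks of 9.18 and 11.2-fold overlapped the neighbour Adgre5 as well. Their false discovery rates were 0.195 and 0.0195, where the 3.06-fold peak had 8.3e-05 and the KO peak 0.0631. Peaks named after Mir1668 also lay in Ddx39a, where Adgre5 overlaps, in both lists. They stood at 2.69 and 2.86-fold in WT and at 2.62 and 3.63-fold in KO.

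Helicases of ribosome assembly are the largest of these groups, with 27 of the 64 WT peaks. Of 16 such RefSeq genes 14 had a peak, and 12 differential peaks in 8 genes were listed under their names. The authors' deposited table gives 10 as lower and 2 as higher, where 69.6% of all listed peaks were lower. The lower ones include the peaks in Derl2 and Tmed2 described below. Ddx31, a nucleolar helicase, had the largest decrease of all helicases, -1.16 in the authors' deposited table, at 3′ UTR bases 28904972 to 28905212 of chromosome 2. Its WT peak there was 5.61-fold and none was called in KO. The message of Dhx33 followed at -0.97 in the authors' deposited table, for a 3′ UTR peak on chromosome 11 from 70986396 to 70991824 called at 31.3-fold in WT and 11.3-fold in KO. The peak was built of 3 blocks over the same exons in both lists. A second peak under the name Dhx33, at -0.53 in the authors' deposited table, lay in Derl2, a gene of protein export from the endoplasmic reticulum.

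The other lower ribosome helicases had smaller listed differences. Ddx47, a helicase of small-subunit processing, had ratios of -0.68 and -0.45 at 2 sites of its 3′ UTR in the authors' deposited table. Ddx24, a nucleolar helicase, had 3 at -0.68, -0.36 and -0.35 in the authors' deposited table. They lay in exon 3, the 5′ UTR and exon 2, and the last 2 fell within 1 long WT peak, so they are not separate sites by the WT list. Dhx37, which acts on the small subunit, stood at -0.58 in the authors' deposited table with a false discovery rate of 0.0933. The peak named after Ddx55 stood at -0.32 in the authors' deposited table and lay in Tmed2, a gene of vesicle transport. Higher values belonged to Ddx18, at 0.84 in the authors' deposited table, and to Ddx49, at 0.49 with a false discovery rate of 0.0646. Both proteins act in the assembly of ribosomal subunits. The Ddx18 peak lay on chromosome 1 from 121553835 to 121554044, and the Ddx49 peak on chromosome 8 from 70292896 to 70293165, where Homer3 overlaps. Ddx54 had 4 peaks in WT, of 1.25, 7.14, 10.2 and 15.3-fold, and no listed difference under its own name. The false discovery rates of the 1.25 and 7.14-fold peaks were 0.126 and 0.571. Ddx51 had WT folds of 1.81, 1.81 and 1.86, near the low end of its list. The other members with no listed difference under their own names were Ddx10, Ddx21, Ddx50 and Ddx56, the last with a shared 3′ UTR peak of 4.97-fold in WT and 4.72-fold in KO.

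All 5 helicases of translation and decay that had peaks, of 7 in RefSeq, had at most 1 peak per list under their names. The differences listed were that of Dhx9 and that of Ddx6, at -0.46 in the authors' deposited table for a peak labelled 5′ UTR on chromosome 9 from 44604892 to 44623726. The last of its 5 blocks ends 20743 bases from the RefSeq start, in a gene of 37749 bases, so the label does not describe the whole peak. Ddx6 sits at the junction of deadenylation and decapping and is a core protein of P-bodies. Its peak was 22.9-fold in WT and 19.3-fold in KO, with a p listed as 0 in both lists. Dhx34 had peaks of 7.82-fold and 9.89-fold over its 5′ end, where the sequence shown above lies, and no listed difference. Ddx3x, which helps scan structured 5′ leaders, had 2.19 and 1.78-fold 3′ UTR peaks. Dhx36, which unwinds G-quadruplexes, had a peak in WT at 2.65-fold with a false discovery rate of 0.185.

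Of the antiviral helicases, Dhx58 (LGP2) is described here. It binds viral double-stranded RNA and tunes interferon induction. It had 2 listed peaks in opposite directions, 0.45 and -0.44 in the authors' deposited table. The higher one, on chromosome 11 from 100694884 to 100695241, lay at the 3′ end of Dhx58, overlapped Gm38483 and had a false discovery rate of 0.0977. The lower one lay outside Dhx58, in Kat2a, an acetyltransferase of histones, and was called at 17.5-fold in WT and 5.53-fold in KO. Within Dhx58 itself no lower peak was listed.

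Both mitochondrial helicases had lower peaks, where 69.6% of all listed peaks were lower. Dhx30, a factor of mitochondrial ribosome assembly, stood at -0.66 in the authors' deposited table in exon 8 of 19, with 4.08-fold in WT and 2.6-fold in KO. Ddx28, which acts on the large mitochondrial subunit, stood at -0.30 in the authors' deposited table, over a single block of 1816 bases. Its called peaks were 12.8-fold and 17.4-fold. Here the order of the folds in the separately scaled lists is opposite to the sign of the listed ratio. The same held for Dhx9, Ddx59, the 5′ UTR of Ddx24 and the second peak of Ddx47, and for Ddx18 among the higher peaks.

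Helicases with other roles had 4 lower peaks under their names, in 4 of the 8 genes with peaks, where 69.6% of all listed peaks were lower. Dhx32, whose function is little known, had -0.96 in the authors' deposited table over blocks that end just short of the sequence shown above, which lies in the longer called peaks only. Dhx57 stood at -0.87 in the authors' deposited table in an exon peak of 11.6-fold in WT and 5.25-fold in KO. Ddx59, mutated in a human oral, facial and digital syndrome, stood at -0.67 in the authors' deposited table, at a place where the WT peak carries the name of 9230116N13Rik. Ddx20 stood at -0.55 in the authors' deposited table, over 1282 bases of its 3′ UTR. Ddx11 had a WT peak of 28.6-fold and 3 KO peaks of 4.72 to 11.8-fold, with no listed difference. The KO peaks of 4.72 and 8.27-fold each had a false discovery rate of 0.228. Ddx1 and Dhx40 had a peak in KO under their names, at 1.65-fold and 8.27-fold, the latter with a false discovery rate of 0.353. Ddx25 had peaks outside its extent and no listed difference.

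The 4 higher helicase peaks shared a position that the choice of genes did not use. Each began within 50 bases of the annotated 3′ end of its gene: at 0 bases in Dhx15, Ddx18 and Dhx58 and at 30 in Ddx49. Each was also short, from 210 to 358 exonic bases. Of the 21 lower peaks, 18 lay in their named gene. Of these, 5 reached within 50 bases of the 3′ end (Ddx20, Ddx28, Ddx47, Dhx9 and Dhx38), all of them longer than 400 bases, and 13 lay farther from it. The position was noticed in these peaks and then counted over the whole table, with both limits chosen after the values were seen. Of all listed peaks of 400 bases or shorter at the 3′ end of their named gene, 38 of 682 (5.57%, exact interval 3.97 to 7.57%) were lower in the authors' deposited table and 644 higher. Short peaks elsewhere were lower in 59.3% of 1291, long peaks at the 3′ end in 91.3% of 403, and long peaks elsewhere in 95.6% of 2259. The 4 higher helicase peaks thus lie in the class of peaks that is mostly higher over the whole table, and the 18 lower ones in the other classes. What the higher values of short peaks at 3′ ends reflect was not tested.

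**Figure D3:**
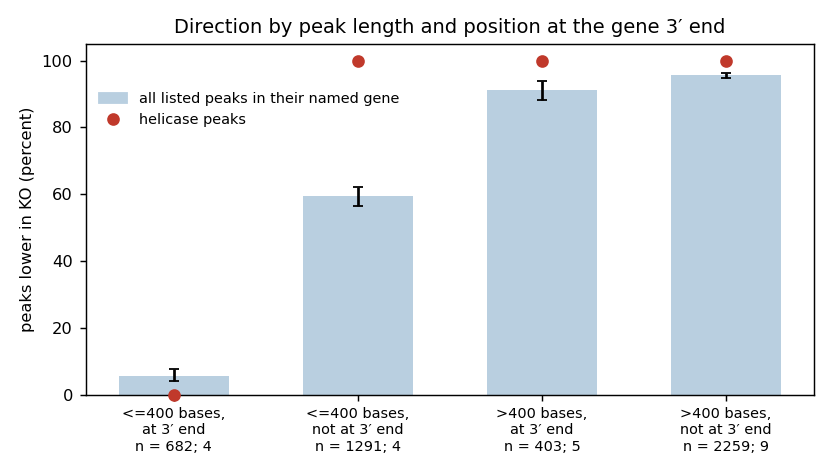
Percent of differential peaks whose ratio in the authors' deposited table is below 0 (y) by exonic length and by whether the peak lies within 50 bases of the RefSeq 3′ end of its named gene (x); bars are all listed peaks with exact 95% intervals, red points helicase peaks, and n gives all peaks and helicase peaks. Short peaks at the 3′ end stand at 5.57% and hold the 4 higher helicase peaks, and the other classes stand between 59.3% and 95.6%.

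The gene name given to a peak in the lists is not always the gene in which the peak lies, and this bears on helicases both ways. Of the peaks named after a helicase, 55 of 64 in WT and 51 of 66 in KO overlapped that gene in RefSeq (85.9% and 77.3%), against 84.2% and 82.1% of all peaks whose name RefSeq holds. In turn 28 WT and 27 KO peaks under another name overlapped the extent of a helicase gene by at least 1 base. The helicase was the only RefSeq gene at 19 and 18 of them. The overlap was as small as 1 of 887 bases, for a WT peak at Ddx24. The KO count includes the 3.54-fold peak named after Ddx19a, which lay in Ddx19b. Such overlap was also found for 11 differential peaks in 9 genes, 10 of them with the helicase as the only RefSeq gene. The authors' deposited table gives 8 of these 11 as lower and 3 as higher. With these added, and without the 3 that lay outside, 26 differential peaks were lower and 7 higher, where 69.6% of all listed peaks were lower. The added lower values include -0.48 in Ddx21, -0.35 in Ddx42, -0.46 in Ddx52 and -0.62 in Ddx54 in the authors' deposited table. Of the 3 added higher peaks, 2 ended at the 3′ end of the helicase gene (Ddx39b and Ddx6, below). The third did not: a 61-base peak in Ddx5, named after Mir3064, lay 1286 bases from the 3′ end and stood at 0.29 in the authors' deposited table. Ddx19b, a helicase of the nuclear pore, had none under its name but a peak of 10.7-fold in WT and 2.78-fold in KO named after Mir3473d, with -0.90 in the authors' deposited table. Ddx39b, the export helicase UAP56, had none under its name but a 3′ UTR peak named after Mir8094, 28.6-fold in WT and 6.14-fold in KO. Its ratio was 0.92 in the authors' deposited table, and that differential peak also ended 0 bases from the 3′ end of the gene, with 239 bases.

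Several genes named in 1 list only had peaks of the other genotype under a neighbour's name. Ddx42, which binds the splicing factor SF3B1, had a 2.34-fold KO peak, while the WT peak over the same 3′ UTR, 3.28-fold, carried the name Psmc5. Ddx5 had its WT peak at the 5′ end, while KO peaks of 1.51 and 1.25-fold in its 3′ UTR carried the names Polg2 and Mir3064. Dhx40 had a KO peak at its 5′ end, while peaks of 3.92-fold in WT and 3.14-fold in KO near its 3′ end carried the name Cltc and also overlapped Gm42085. Ddx50, a nucleolar paralogue of Ddx21, had a 2.16-fold 3′ UTR peak in KO and no WT peak overlapping it. Dhx36, named above, had no KO peak overlapping its WT peak.

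Ddx6 showed most plainly how peaks over 1 gene can carry other names. Over its RefSeq extent of 37749 bases, 4 differential peaks were listed, 3 of them under Gm47234. From 5′ to 3′ the log2 ratios were -0.46, -0.34, -0.41 and 0.74 in the authors' deposited table, the third with a false discovery rate of 0.0692. The large 3′ UTR peak, 5.26-fold in WT and 4.11-fold in KO, gave the second value, and a 241-base peak ending 0 bases from the 3′ end gave the last. Over the extent of 1 gene, then, 3 peaks were listed as lower in KO and the terminal one as higher. Whether they lie on the same transcript was not tested.

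**Figure D4:**
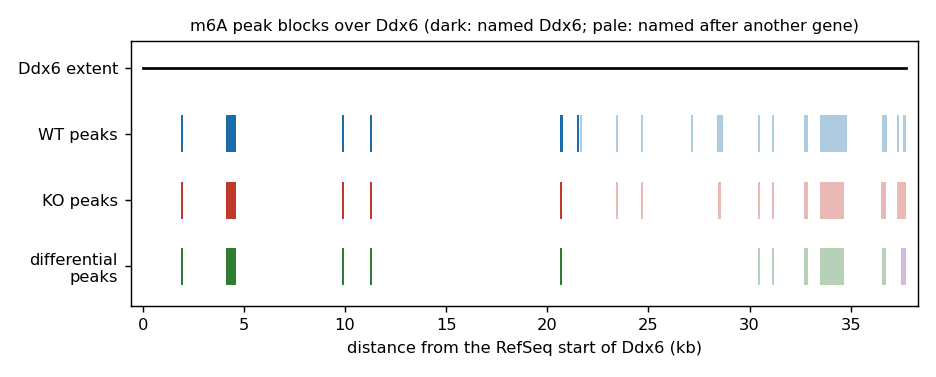
Exonic blocks of peaks over Ddx6 by distance from its RefSeq start (x, kb), in rows for the gene extent, WT peaks, KO peaks and differential peaks (green lower in KO, purple higher); dark blocks carry the name Ddx6 and pale ones another name. The first 5 blocks overlap in all 3 rows of peaks, and the only purple block is at the 3′ end.

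Input levels were listed for the 20 helicase genes with a differential peak. They ran from 1.62 to 34.7 FPKM in WT, with a median of 5.77 against 7.72 over all listed genes. The level was higher in KO for 19 of the 20 (95.0%, exact interval 75.1 to 99.9%), where 69.0% of 3679 listed genes were higher. The interval takes genes as independent, which genes of 1 library pair are not. The differences were small: the median of log2(FPKM + 1) in KO minus WT was 0.17 against 0.07 over all listed genes, and 13 of 20 lay above that median. This scale understates the change of low genes. Among all genes with lower peaks only, 77.4% of 2349 were higher in KO, with a median of 0.10.

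On this scale the largest increases were in Ddx59, from 2.79 to 3.76 FPKM, and Ddx24, from 7.51 to 9.56, log2 differences of 0.33 and 0.31. Ddx31 stood at 3.10 and 4.02, Ddx20 at 2.35 and 3.08, and Dhx8 at 7.80 and 9.53 FPKM. All 5 had lower peaks only. By the plain ratio of KO over WT the order differs, with Ddx59 at 1.35, Ddx20 at 1.31, Ddx31 at 1.30 and Ddx24 at 1.27. Dhx37 was the 1 gene lower in KO, at 3.08 FPKM in WT and 2.63 in KO, a log2 difference of -0.17. Dhx58 stood at 5.83 and 7.17 FPKM and Ddx49 at 5.84 and 7.15, with log2 differences of 0.26 and 0.25. Dhx33, whose peak ratio was next to the lowest, stood at 2.20 and 2.78 FPKM, a log2 difference of 0.24. Dhx32 (0.19), Ddx18 (0.18), Ddx47 (0.15), Dhx30 (0.15) and Dhx9 (0.11) followed. Ddx55 (0.06), Dhx57 (0.05), Ddx28 (0.03), Dhx38 (0.01), Dhx15 (0.01) and Ddx6 (0.002) stood near 0. Ddx6 was the most abundant, at 34.7 FPKM in WT and 34.8 in KO. The adjusted p of the input difference in the authors' deposited table was 1 for all 20 genes, and the smallest over all listed genes was 0.562. With 1 input library per genotype, no single difference can be set against a spread between replicates.

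**Figure D5:**
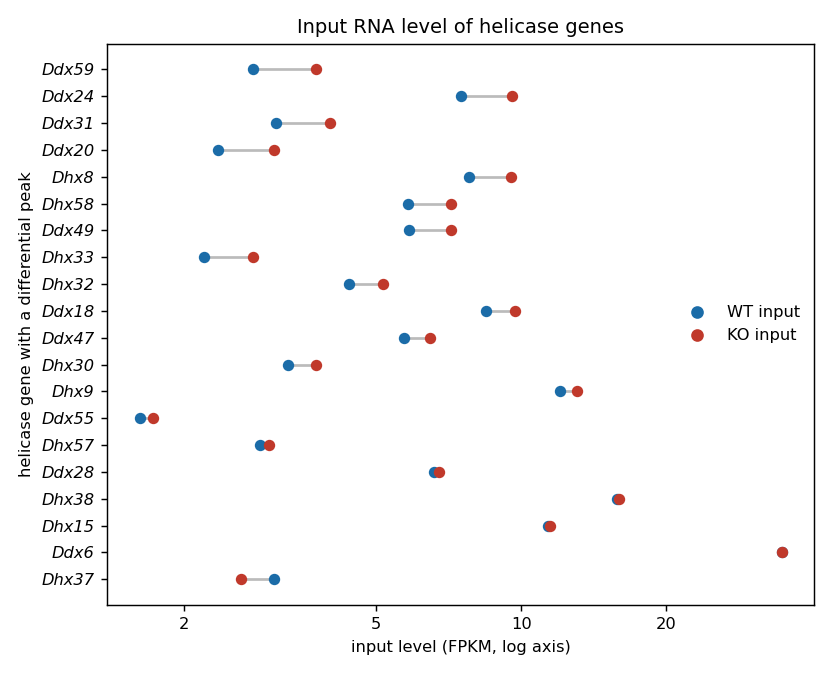
Input level in FPKM (x, log axis) of the 20 helicase genes with a differential peak (y), WT in blue and KO in red, ordered by the log2(FPKM + 1) difference. KO lies to the right in 19 genes and to the left in Dhx37 (3.08 to 2.63), and the Ddx6 points coincide at 34.7 and 34.8.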

How the data were processed

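Macrophages of each genotype gave 1 IP and 1 input library, 4 together, grouped by the sample titles. The submitters' processing notes list edgeR, StringTie, ChIPseeker, HOMER, HISAT2 and fastp with mm10 as the build, with no role for each. The peak caller is not stated in the sources used here. Per the file headers, the authors deposited a fold enrichment (a ratio, IP to input) with its p-value for each peak of each genotype. They also deposited a log2 ratio of KO over WT with its p-value, and the input level of the gene in FPKM with a p-value. The false discovery rate was read from its deposited log10 value.

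The deposited starts count from 0 and were raised by 1. Overlap used exonic blocks, a minimum of 1 base and no strand. Gene extents, starts and sequences came from RefSeq (GRCm38.p6), where 39 helicase names matched as symbols and Ddx39 as a synonym of Ddx39a. Input differences were taken as log2(FPKM + 1) where the mean of a gene reached 1 FPKM. Shares have exact (Clopper-Pearson) 95% intervals. The counting of overlaps and shares was tested on simulated data. No test across samples or genes was run. The tools were matplotlib 3.10.9, scipy 1.17.1, pandas 2.3.3 and numpy 2.4.6 in Python 3.11.15.

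The helicase names, their grouping by role and the marker lists were chosen with earlier results of these data known. The rule for named genes took every member with a differential peak, the 5 highest folds and all members with 3 or more peaks in each list, members of 1 list by count and by name from 2-fold, and all listed input levels. Members named beyond it were chosen with their values in view. Other settings tried were a stricter fold (4), stricter p-values (1e-10 for peaks, 0.001 for differences), a false discovery rate under 0.05, 50% reciprocal overlap, the median of the table as zero, 1 value per gene, RefSeq extents, a pseudocount of 0.1 and no filter on low values.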

Additional observations from a re-analysis of the deposited data

How the results depend on the processing

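With 1 library per group there was no replicate to leave out. No paired analysis was possible because each group held 1 library. The planned share of peaks holding GGACT was not run, since no genome sequence was used here. The alternatives chosen after seeing the data were the false discovery rate applied to the peak lists, peaks whose named gene is the single RefSeq gene there, and all peaks in helicase extents whatever their name. The count of lower differential peaks was within 1.5 times of 21 under every alternative run, from 14 to 26. The count of higher ones, 4, became 2 at a false discovery rate under 0.05, 1 at a p under 0.001, 2 where the named gene was the single RefSeq gene at the peak, 7 over all peaks in helicase extents, and 10 against the median of the table. Against that median 6 lower peaks changed sign: Dhx38 to 0.037, Ddx24 to 0.044 and 0.052, Ddx55 to 0.087, Ddx28 to 0.107 and Dhx9 to 0.204. The WT list kept 25 helicase peaks at 4-fold and 20 at a p of at most 1e-10, and the KO list 25 and 22. The shared peaks fell to 51.6% in WT and 53.0% in KO at an overlap of 50% of both peaks. The share over all peaks was not counted at that limit, so the fall cannot be set against it. With the median over all listed genes subtracted, the median input difference was 0.10, and 6 genes changed sign: Ddx6 to -0.0695, Dhx15 to -0.0600, Dhx38 to -0.0580, Ddx28 to -0.0391, Dhx57 to -0.0221 and Ddx55 to -0.0133. Where a stricter limit or a named subset gave a smaller count, fewer peaks were counted by construction, and for the shifts against a median the subtraction is the cause.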

Other observations

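Helicases outside the Ddx and Dhx names gave a comparison set of 22 gene symbols, listed with earlier results known, of which Skiv2l2 is an older symbol of Mtrex and had no peak. Of these 11 had a peak in WT, 15 in KO and 9 a listed difference, and the authors' deposited table gives 7 of their 12 peaks as lower and 5 as higher, at a median of -0.25. Over all listed peaks 69.6% were lower, at a median of -0.40. The microRNA-processing enzyme Dicer1 had ratios of -0.99 and -0.70 at 2 sites in the authors' deposited table. Upf1, the central helicase of nonsense-mediated decay, stood at -0.53 in the authors' deposited table. On the higher side were Mtrex, the helicase of the nuclear exosome, at 1.35, the translation initiation helicase Eif4a1 at 0.79 and its relative Eif4a3 of the exon junction complex at 0.67 in the authors' deposited table. Eif4a1 was the most abundant, at 116 FPKM in the WT input and 103.6 in KO. Input was higher in KO for 6 of the 9 genes with a level, with a median log2(FPKM + 1) difference of 0.13. The difference between these genes and the Ddx and Dhx genes was not tested.

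Of 52 RefSeq symbols that fit the Ddx and Dhx rule, 12 had no peak of their own name. They are Ddx17, Ddx19b, Ddx27, Ddx39b, Ddx3y, Ddx4, Ddx41, Ddx43, Ddx52, Ddx60, Dhx29 and Dhx35. Of these Ddx19b, Ddx39b, Ddx41 and Ddx52 had peaks within their extent under another name, with 1.55-fold in WT and 1.77 and 1.47-fold in KO for Ddx41. For the other 8 no value was analysed here.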
